A study of Mus musculus with 4 samples.

Results

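DNA repair and damage checkpoint genes were examined in mouse 4T1Br cells, a brain-seeking line derived from the 4T1 mammary carcinoma; the cell line label and the protocols name 4T1Br, while the sample titles say 4T1. The set comprised 52 genes of 8 groups of repair and checkpoint functions, and a gene was taken as measured where a probe set carried its symbol and no other. Of the 52, 48 genes were measured, on 49 probe sets, out of 22180 genes with a probe set of their own. Fanca, Apex1 and Ddb2 lay only on probe sets shared with another gene, Xrcc2 was not in the annotation table, and these 4 genes have no value here.

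All cells were transduced with lentivirus and selected with puromycin. One group carried a control hairpin (shControl, genotype label control) and the other a hairpin against YTHDF3 (shYTHDF3, labelled as YTHDF3 knockdown). Each group held 2 arrays. YTHDF3 is a reader protein that binds N6-methyladenosine in messenger RNA. The comparison addresses transcript abundance after its depletion, and arrays read neither translation nor protein. Nothing in the labels tells whether separate cultures were used or how many hairpin sequences there were; the p-values therefore cover only the spread among these 4 arrays, and part or all of that spread may be technical.

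Cells meet broken, mismatched and chemically altered DNA with separate pathways. Homologous recombination copies an intact sister chromatid to mend a double-strand break, whereas end joining seals the ends directly. The Fanconi anaemia pathway unhooks crosslinks, mismatch repair corrects copying errors, nucleotide excision repair removes bulky lesions and base excision repair removes single damaged bases. The kinases ATM and ATR sense damage and signal to checkpoint kinases that hold the cell cycle. Several of these genes, among them Brca1, Brca2, Chek1, Exo1 and Blm, are known as targets of E2F factors and are most abundant around S phase, so their level in a culture also depends on how many cells are replicating. In a bulk sample fewer cells in a given state and less RNA per cell cannot be told apart.

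The targeted transcript, Ythdf3, read 8.98 and 8.81 under shControl, and 8.21 and 8.16 under shYTHDF3 (log2 signal), a difference of -0.71 (SE 0.10, limma adjusted p = 0.0355); with any 1 array left out the adjusted p lay between 0.141 and 0.188. Median signal over all probe sets lay between 4.42 and 4.47 on the 4 arrays. The epithelial keratin genes Krt8 and Krt18 read at least 10.04 on every array, whereas Epcam and Krt14 lay below the background level of 4.28 on average, as 2 of 7 mammary epithelial markers measured. Of markers of other cells, 1 of 6 macrophage and leukocyte genes (Cd68), 1 of 4 endothelial genes (Cdh5) and 5 of 6 fibroblast genes lay above background on average. Col3a1 and Cdh5 were just above it. Col3a1 read 4.18 on shControl 1 and 3.99 on shYTHDF3 1, and Cdh5 read 4.26 on shYTHDF3 1, all below it. Ptprc and Lum lay below background on all 4 arrays. The summed linear signal of the fibroblast list was 814 to 874 under shControl and 594 to 608 under shYTHDF3; Pdgfra fell by 0.61 (limma adjusted p = 0.0471), and without it the other 5 genes summed to 116 to 145 and 132 to 135, with Pdgfrb at a difference of 0.21. The macrophage and leukocyte list summed to 220.1 to 257 and 162 to 174. Cd68 differed by -0.72 (limma adjusted p = 0.0547). Without Cd68 the other 5 genes, all below background on average, summed to 63.0 to 67.0 and 61.5 to 64.1. For the endothelial list the sum was 68.0 to 68.6 and 65.2 to 72.2. For the mammary epithelial list it was 2644 to 2859 and 3567 to 3804. Differences were 0.57 for Krt18, 0.31 for Krt8, 0.10 for Cdh1, -0.027 for Cldn4 and -0.53 for Krt19. Groups were separate for Krt18 and Krt8, with shYTHDF3 higher, and for Krt19, with shYTHDF3 lower. None of these genes passed (limma adjusted p from 0.0527 to 0.905). The part of these marker differences in the repair gene values was not tested.

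Brca2 and Xrcc3, both genes of homologous recombination, rose in shYTHDF3, and no gene of the set fell. All 48 measured genes had a mean above background and entered the test, which was fitted over 13056 genes. The 2 rises are 4.17% of the set. Over all genes tested 1.28% were called higher and 1.45% lower (2.73% in either direction; limma, adjusted p under 0.05). By unadjusted limma p under 0.05, 13 genes of the set were higher and 1 was lower, against 12.2% and 10.4% of all genes, that is 27.1% and 2.08% of the set. These shares of all genes also stand beside the counts by pathway given below. The groups did not overlap, with shYTHDF3 above, in 21 genes (43.8%, and 28.3% of all genes), and with shYTHDF3 below in 4 (8.33%, and 25.7% of all genes). The median change was 0.12 (log2) over the set and 0.0057 over all genes. With an intensity trend in the variance model limma called 7 genes of the set higher (Brca1, Brca2, Chek1, Ercc1, Polh, Xrcc3 and Xrcc5) and 0 lower, where 5.59% and 5.33% of all genes were called; 14 and 2 had an unadjusted p under 0.05 in that fit, against 13.6% and 12.1% of all genes. Changes were small: 46 of 48 genes differed by less than 0.5 in either direction, and 18 by less than 0.1. Among all 13056 genes tested, 805 differed by more than 0.5 and 4682 by less than 0.1.

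**Figure D1:**
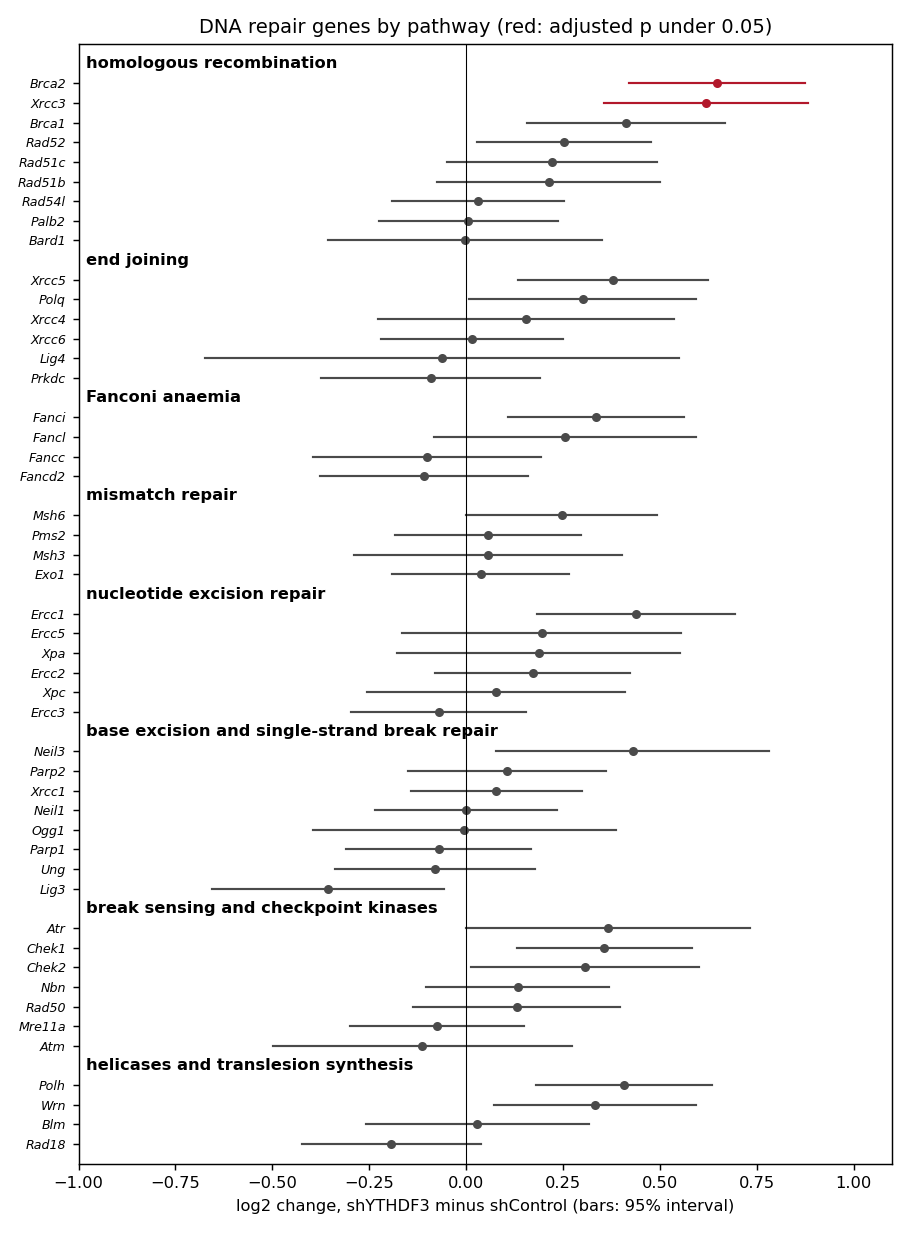
Log2 change between shYTHDF3 and shControl (x axis) for the 48 measured DNA repair genes, grouped by pathway, with dots for the difference of group means (2 arrays each) and bars for the 95% interval from limma. Brca2 and Xrcc3, in red, passed the adjusted p threshold at 0.65 and 0.62, and Lig3 had the lowest value at -0.36.

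The arrays of the control group differed from each other in this set. On shControl 1, 37 of 48 genes (77.1%) read higher than on shControl 2, compared with 54.3% of all genes tested, and the median gap was 0.078, compared with 0.019 over all genes. Relative to each gene's mean over the 4 arrays, the median of the set was -0.015 on shControl 1, -0.13 on shControl 2, 0.050 on shYTHDF3 1 and 0.091 on shYTHDF3 2. The set's median change of 0.12 became 0.071 when shControl 2 was left out and 0.18 when shControl 1 was; leaving out shYTHDF3 1 gave 0.17, and leaving out shYTHDF3 2 gave 0.10. Counts of genes by unadjusted p are not compared over these fits, which leave 1 array in a group and have fewer residual degrees of freedom. The part of the gap between the control arrays in these changes was not tested. The change was larger than the wider of the 2 replicate gaps in 21 of 48 genes (43.8%), against 42.5% of all genes.

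**Figure D2:**
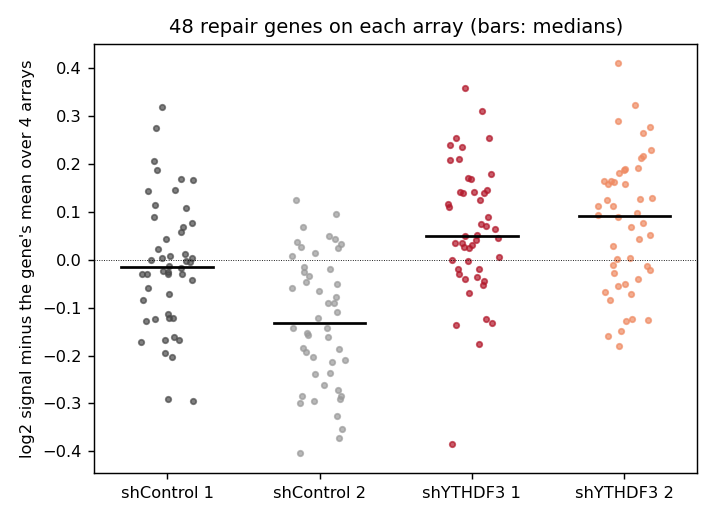
Each point is 1 of the 48 repair genes on 1 array (x axis), given as its log2 signal minus its mean over the 4 arrays (y axis), and bars are medians. The median was lowest on shControl 2 at -0.13 and highest on shYTHDF3 2 at 0.091.

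Homologous recombination genes held the largest differences of the set. Brca2 encodes the protein that loads the strand-exchange recombinase onto resected DNA. It read 7.01 and 6.95 under shControl, and 7.66 and 7.59 under shYTHDF3. Both shYTHDF3 arrays lay more than 0.5 above both shControl arrays, and Brca2 rose by 0.65 (SE 0.092, limma adjusted p = 0.0355), or 1.57-fold, with a 95% interval of 0.42 to 0.88. Xrcc3, a paralog of that recombinase, read 6.88 and 6.85 under shControl, and 7.38 and 7.58 under shYTHDF3. The control arrays were close to each other and both shYTHDF3 arrays were higher; Xrcc3 rose by 0.62 (SE 0.11, limma adjusted p = 0.0490), or 1.53-fold, with a 95% interval of 0.35 to 0.88. Without the filter on dim probe sets the limma adjusted p was 0.0898 for Brca2 and 0.115 for Xrcc3, quantile normalization applied once more gave 0.0522 for Xrcc3, and over the alternatives tried the adjusted p ran from 0.00298 to 0.188 for Brca2 and from 0.00621 to 0.232 for Xrcc3. Leaving out shControl 1, shControl 2, shYTHDF3 1 or shYTHDF3 2 ended both calls, as it did nearly all calls over all genes. The Brca2 change stayed between 0.61 and 0.68 in those fits, and the Xrcc3 change between 0.52 and 0.72.

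Brca1, whose product promotes resection of broken ends, read 7.89 and 7.74 under shControl, and 8.27 and 8.18 under shYTHDF3. The groups did not overlap, but the difference of 0.41 (SE 0.10, limma adjusted p = 0.0972) did not pass the test; with an intensity trend in the variance model the adjusted p was 0.0229, within a range of 0.0200 to 0.315 over the alternatives. Bard1, the obligate partner of the BRCA1 protein, read 6.72 and 6.97 under shControl, and 6.99 and 6.70 under shYTHDF3. Its arrays overlapped, and its difference of -0.0024 (SE 0.14, limma adjusted p = 0.996) had a 95% interval of -0.36 to 0.35. Palb2, which bridges the BRCA1 and BRCA2 proteins, differed by 0.0057 (95% interval -0.22 to 0.24), and the DNA translocase gene Rad54l by 0.031 (95% interval -0.19 to 0.25). The annealing protein gene Rad52 differed by 0.25 (SE 0.091, limma adjusted p = 0.185) with separate groups. The recombinase paralogs Rad51c and Rad51b differed by 0.22 and 0.21, also with separate groups and with adjusted p of 0.296 and 0.340. In all, 2 of 9 measured genes of this pathway rose and 7 did not pass; their median change was 0.22, and in 6 of 9 shYTHDF3 lay above shControl without overlap, as in 28.3% of all genes.

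**Figure D3:**
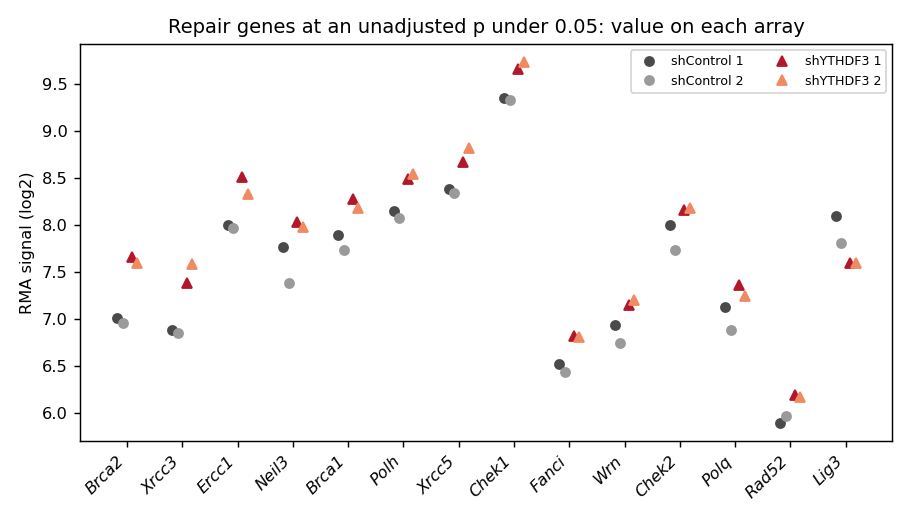
Log2 RMA signal on each array (y axis; circles for shControl, triangles for shYTHDF3) for the 14 repair genes with an unadjusted limma p under 0.05, ordered by change. In 13 of them both triangles lie above both circles, as for Brca2, and in Lig3 both lie below.

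The promoter windows of the 2 genes that rose, and of Brca1 beside them, are printed to show which well-known promoter letters each holds. Sequences are RefSeq's on GRCm38.p6, from 250 bases before to 50 bases after the annotated start, in the direction of the gene. Capitals mark matches on either strand: in Brca2 the E2F letters (TTTCCCGC, TTTCGCGC, TTTGCCGC or TTTGGCGC) and the cyclic AMP response element TGACGTCA, in Xrcc3 the CCAAT box and the GC box GGGCGG, and in Brca1 the CCAAT box.
Brca2, chr5:150522371-150522670, plus strand: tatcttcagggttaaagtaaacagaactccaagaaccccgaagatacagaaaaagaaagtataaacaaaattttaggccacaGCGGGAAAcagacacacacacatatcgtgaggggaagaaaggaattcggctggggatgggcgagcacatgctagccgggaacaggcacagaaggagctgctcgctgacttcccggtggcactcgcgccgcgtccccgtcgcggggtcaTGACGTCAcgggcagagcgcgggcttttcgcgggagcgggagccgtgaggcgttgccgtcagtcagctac
Xrcc3, chr12:111813830-111814129, minus strand: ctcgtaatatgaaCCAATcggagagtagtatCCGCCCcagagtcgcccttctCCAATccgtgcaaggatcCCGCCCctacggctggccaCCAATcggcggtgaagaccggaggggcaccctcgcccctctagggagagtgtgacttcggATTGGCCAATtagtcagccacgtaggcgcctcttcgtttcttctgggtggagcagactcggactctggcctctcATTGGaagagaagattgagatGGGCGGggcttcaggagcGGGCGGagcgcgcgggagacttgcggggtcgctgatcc
Brca1, chr11:101551906-101552205, minus strand: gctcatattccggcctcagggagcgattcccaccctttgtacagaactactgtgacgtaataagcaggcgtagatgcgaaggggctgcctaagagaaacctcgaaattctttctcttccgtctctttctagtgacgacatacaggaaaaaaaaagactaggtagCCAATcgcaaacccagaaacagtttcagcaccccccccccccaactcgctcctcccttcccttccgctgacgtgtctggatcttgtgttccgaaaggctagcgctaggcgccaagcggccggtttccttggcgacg
The Brca2 window held 1 E2F match and 1 full response element, the Xrcc3 window 6 CCAAT and 4 GC box matches and the Brca1 window 1 CCAAT match. These are matches of letters, not measured binding.

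Windows were found for 40 of the 48 genes, 45 windows in all because some genes have more than 1 start; Nbn, Rad50, Prkdc, Fancd2, Wrn, Exo1, Xpc and Ercc3 had none in the table. The E2F letters stood in 8 of the 45 windows (17.8%) and in 2.26% of all 32851 windows. The 7 genes that held them were Bard1, Brca2, Chek2, Msh3, Msh6, Rad51c and Xrcc6, with changes from -0.0024 to 0.65 and a median of 0.22, beside a median of 0.15 for the genes with a window and no match. The full response element stood in 2 windows (4.44%, and 1.79% of all windows), those of Brca2 and Rad51c. The CCAAT box stood in 21 windows (46.7%, and 37.4% of all windows) and the GC box GGGCGG in 28 (62.2%, and 35.7% of all windows). A GC box and an E2F match can share bases. Genes with a CCAAT box had a median change of 0.078, and genes with a window and no such box 0.22; for the GC box the medians were 0.057 and 0.23.

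Some repair genes start back to back with a neighbour, so that 1 stretch of DNA lies upstream of both. Of the 40 genes with a window, 17 had a start on the opposite strand no more than 1000 bases upstream, and 11 of those neighbours were tested. Zfyve21, which encodes a zinc finger protein of endosomes and whose start lies 291 bases from that of Xrcc3, read 6.55 and 6.37 under shControl, and 7.17 and 7.01 under shYTHDF3. Its groups did not overlap, and its difference of 0.63 (SE 0.11, limma adjusted p = 0.0527) was close in size to the Xrcc3 rise but missed the threshold. Nbr1, an autophagy receptor gene 152 bases from Brca1, differed by 0.28 (SE 0.10, limma adjusted p = 0.168) with separate groups. By contrast Xpo5, the exportin gene that starts 170 bases from Polh, differed by -0.15 where Polh differed by 0.41. Tmem167, which starts 59 bases from Xrcc4, differed by 0.33, and Npat, the histone gene coactivator that starts 376 bases from Atm, by -0.22. The sign was shared in 5 of the 11 pairs, and limma called none of the 11 neighbours (3 were higher and 0 lower by unadjusted p under 0.05).

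**Figure D4:**
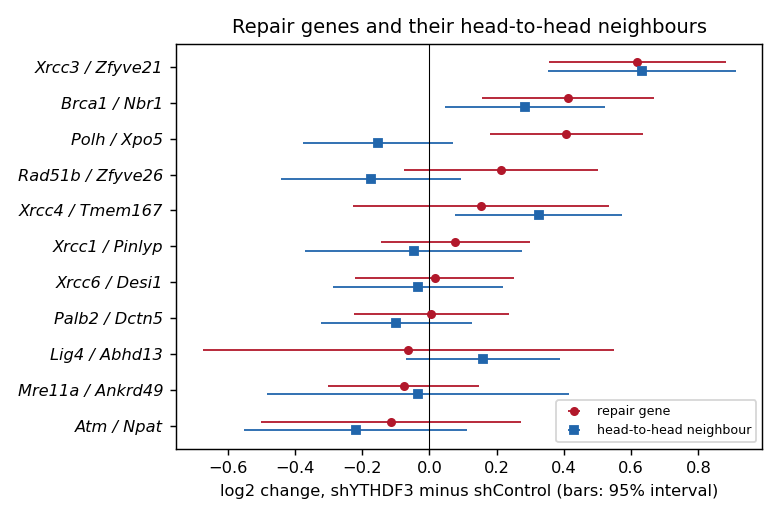
Log2 change between shYTHDF3 and shControl (x axis) for 11 repair genes (red circles) and their tested head-to-head neighbours (blue squares), with 95% intervals from limma as bars. Xrcc3 and Zfyve21 lie together near 0.62 and 0.63, whereas Polh and Xpo5 lie on opposite sides of 0.

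End joining genes showed no call among 6 tested by limma, with 2 higher and 0 lower by unadjusted p under 0.05. Xrcc5 and Xrcc6 encode the subunits of the Ku heterodimer that caps broken ends. Xrcc5 read 8.39 and 8.34 under shControl, and 8.67 and 8.82 under shYTHDF3. Its groups were separate, with a difference of 0.38 (SE 0.10, limma adjusted p = 0.105) and an adjusted p of 0.0208 with an intensity trend (0.0189 to 0.403 over the alternatives). Xrcc6 read 7.04 and 7.03 under shControl, and 6.99 and 7.11 under shYTHDF3, with overlapping groups and a difference of 0.016 (95% interval -0.22 to 0.25). Prkdc, the catalytic kinase that Ku recruits, differed by -0.091 (95% interval -0.37 to 0.19). Xrcc4 and Lig4, whose products form the sealing ligase, differed by 0.15 and -0.063; Lig4 read 5.40 and 6.10 on its shYTHDF3 arrays, and its 95% interval was the widest of the set (-0.67 to 0.55). Polq, the polymerase of the alternative theta-mediated route, read 7.13 and 6.88 under shControl, and 7.37 and 7.24 under shYTHDF3, with separate groups and a difference of 0.30 (SE 0.12, limma adjusted p = 0.212).

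Among the Fanconi anaemia genes limma called 0 of 4 tested, with 1 higher and 0 lower by unadjusted p under 0.05. Fanci and Fancd2 encode the clamp that is ubiquitinated at crosslinks. Fanci read 6.52 and 6.43 under shControl, and 6.81 and 6.80 under shYTHDF3, a difference of 0.33 (SE 0.092, limma adjusted p = 0.115) with separate groups. Fancd2 read 8.11 and 8.06 under shControl, and 8.08 and 7.87 under shYTHDF3, with overlapping groups and a difference of -0.11 (95% interval -0.38 to 0.16). Fancl, the ubiquitin ligase that acts on that clamp, differed by 0.26 (SE 0.14, limma adjusted p = 0.332), its shControl arrays reading 6.41 and 6.07. Fancc, a core complex gene, differed by -0.10 at a mean just above background, with 4.26 on shControl 2 and 4.20 on shYTHDF3 2 below it.

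Mismatch repair genes differed by 0.037 to 0.25. By limma 0 of 4 passed, and 0 had an unadjusted p under 0.05. Msh6, a subunit of the complex that recognises base mismatches, read 7.97 and 8.11 under shControl, and 8.25 and 8.32 under shYTHDF3, with separate groups and a difference of 0.25 (SE 0.10, limma adjusted p = 0.222). Msh3, the subunit that recognises larger loops, differed by 0.056, the endonuclease gene Pms2 by 0.057 and the exonuclease gene Exo1 by 0.037. The 95% interval of Exo1 was -0.19 to 0.27, so a change the size of that of Brca2 lay outside it.

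In nucleotide excision repair, 0 of 6 genes passed by limma and 1 was higher by unadjusted p under 0.05. That gene was Ercc1, the non-catalytic subunit of the nuclease that cuts on the 5′ side of a lesion. It read 8.00 and 7.97 under shControl, and 8.51 and 8.33 under shYTHDF3. Its groups were separate, with a difference of 0.44 (SE 0.10, limma adjusted p = 0.0857) and an adjusted p of 0.0162 with an intensity trend (0.0140 to 0.301 over the alternatives). Ercc2, which encodes a helicase of the transcription factor TFIIH, differed by 0.17 with separate groups, and Ercc3, the other TFIIH helicase, by -0.071 with shYTHDF3 lower. Ercc5, the nuclease of the other side, differed by 0.19. The damage recognition gene Xpc differed by 0.076, and the scaffold gene Xpa by 0.19 with 1 control array, at 6.62, apart from the other 3 arrays, which lay between 6.99 and 7.02.

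Base excision and single-strand break repair held the lowest difference of the set beside a high one. Limma called 0 of 8, with 1 higher and 1 lower by unadjusted p under 0.05. Lig3, which encodes the ligase that seals nicks in the nucleus and in mitochondria, read 8.09 and 7.81 under shControl, and 7.60 and 7.59 under shYTHDF3. Both shYTHDF3 arrays lay below both controls, with a difference of -0.36 (SE 0.12, limma adjusted p = 0.167). Its partner scaffold gene Xrcc1 read 7.15 and 7.19 under shControl, and 7.26 and 7.24 under shYTHDF3 and differed by 0.078. Neil3, a glycosylase gene expressed in dividing cells, read 7.76 and 7.38 under shControl, and 8.03 and 7.98 under shYTHDF3, with separate groups and a difference of 0.43 (SE 0.14, limma adjusted p = 0.160). The other glycosylase genes differed by less: Neil1 by -0.0011, Ogg1 by -0.0045 and Ung by -0.080. Parp1, the main sensor of nicks, read 8.68 and 8.80 under shControl, and 8.70 and 8.63 under shYTHDF3, with overlapping groups and a difference of -0.071 (95% interval -0.31 to 0.17), and Parp2 differed by 0.11.

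Of the 7 break sensing and checkpoint genes none passed by limma, and 2 were higher and 0 lower by unadjusted p under 0.05. Chek1, the kinase that ATR activates when replication stalls, read 9.35 and 9.34 under shControl, and 9.66 and 9.74 under shYTHDF3. The control arrays were nearly equal and both shYTHDF3 arrays were higher, a difference of 0.36 (SE 0.091, limma adjusted p = 0.102), with an adjusted p of 0.0121 under an intensity trend (0.0114 to 0.388 over the alternatives). Atr read 7.15 and 6.77 under shControl, and 7.40 and 7.25 under shYTHDF3, a difference of 0.36 (SE 0.15, limma adjusted p = 0.223) with separate groups, and a second Atr probe set with a mean just above background differed by 0.0061. Chek2, the kinase downstream of ATM, read 8.00 and 7.73 under shControl, and 8.16 and 8.19 under shYTHDF3, a difference of 0.31 (SE 0.12, limma adjusted p = 0.206), also with separate groups. Atm itself read 7.29 and 6.86 under shControl, and 6.99 and 6.94 under shYTHDF3, with the shYTHDF3 arrays between the controls and a difference of -0.11 (95% interval -0.50 to 0.27). Of the 3 genes of the end-binding complex that recruits ATM, Rad50 differed by 0.13 (95% interval -0.14 to 0.40), Nbn by 0.13 (-0.10 to 0.37) and Mre11a by -0.076 (-0.30 to 0.15).

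The remaining genes act when forks stall. Limma called 0 of these 4, with 2 higher and 0 lower by unadjusted p under 0.05. Polh, the polymerase that copies past ultraviolet lesions, read 8.15 and 8.08 under shControl, and 8.49 and 8.54 under shYTHDF3, with separate groups and a difference of 0.41 (SE 0.092, limma adjusted p = 0.0795); with an intensity trend the adjusted p was 0.0138 (0.0123 to 0.328 over the alternatives). Rad18, the ligase that marks the sliding clamp to recruit it, read 9.78 and 9.69 under shControl, and 9.57 and 9.52 under shYTHDF3, with shYTHDF3 lower and a difference of -0.19 (SE 0.094, limma adjusted p = 0.289). Of the RecQ helicase genes, Wrn differed by 0.33 (SE 0.11, limma adjusted p = 0.148) with separate groups, and Blm by 0.028 with overlapping ones (95% interval -0.26 to 0.32).

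Genes known to peak around S phase and the others were set side by side. The 13 measured S-phase-linked genes were Brca1, Brca2, Bard1, Rad54l, Polq, Fanci, Fancd2, Msh6, Exo1, Neil3, Ung, Chek1 and Blm. This list is not that of the genes with E2F letters. Of the 13 genes 1 (Brca2) rose, with a median of 0.25. At an unadjusted limma p under 0.05, 6 (46.2%) were higher and 0 were lower. Of the other 35 genes 1 (Xrcc3) rose, 7 (20%) were higher and 1 (2.86%) was lower, with a median of 0.11. Among all genes tested, 12.2% were higher and 10.4% lower by that measure, and 1.28% were called higher. The 26 replication genes tested (such as Mcm and Gins genes) had a median of 0.048, with 0 called by limma. By unadjusted limma p under 0.05, 8 (30.8%) were higher and 1 (3.85%) was lower. In 11 (42.3%) shYTHDF3 lay above shControl without overlap and in 6 (23.1%) below, against 28.3% and 25.7% of all genes. An intensity trend gave 7 called higher and 0 lower, where 5.59% and 5.33% of all genes were called. Mcm5, a subunit of the replicative helicase, differed by 0.47 (SE 0.10, limma adjusted p = 0.0744) and the kinase gene Cdk2 by 0.47 (SE 0.11, limma adjusted p = 0.0862). Under the trend their limma adjusted p was 0.00663 and 0.0135. The part of replicating cells in the repair gene values was not tested.

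The other genes of these pathways were counted in the same way. Of 100 tested, limma called 0, with a median change of 0.044. By unadjusted limma p under 0.05, 10 (10%) were higher and 3 (3%) were lower, against 12.2% and 10.4% of all genes. Lig1, the ligase of lagging-strand synthesis and of long-patch repair, read 8.50 and 8.50 under shControl, and 8.97 and 8.96 under shYTHDF3 and differed by 0.47 (SE 0.088, limma adjusted p = 0.0560). Pold1, the catalytic subunit of a replicative polymerase that also fills repair gaps, read 7.80 and 7.83 under shControl, and 8.28 and 8.28 under shYTHDF3 and differed by 0.47 (SE 0.089, limma adjusted p = 0.0567). In both genes the replicates lay within 0.05 of each other and the groups did not overlap. Gtf2h1, a TFIIH subunit gene, had the lowest value of this list at -0.39 (SE 0.12, limma adjusted p = 0.146), with 9.53 and 9.23 in shControl. Under an intensity trend the limma adjusted p was 0.00477 for Lig1, 0.00831 for Pold1 and 0.0328 for Gtf2h1.

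**Figure D5:**
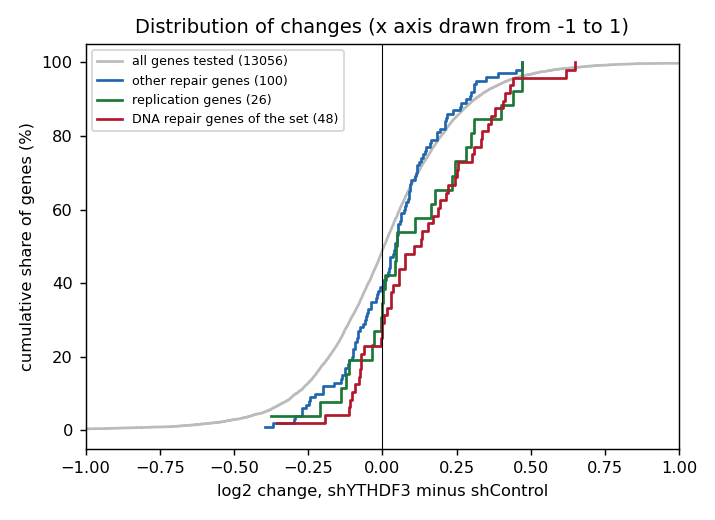
Cumulative share of genes (y axis, percent) by log2 change between shYTHDF3 and shControl (x axis) for the 48 repair genes, 100 other repair and checkpoint genes, 26 replication genes and all 13056 genes tested. The medians lie at 0.12, 0.044, 0.048 and 0.0057.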

How the data were processed

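The authors deposited log2 values, 1 for each probe set on each array. RMA made them, per the submitters' processing notes, its software and version not given in the sources used here, and the log base was inferred from the range of the values. RMA makes arrays alike in distribution, so a shift of most genes one way would not be seen. Gene names came from the platform annotation: 23521 of 41345 probe sets had 1 symbol, 1814 several and 16010 none. Symbols were updated through RefSeq for 23328, except that the set kept its own spelling (Mre11a). A gene's value was its probe set of highest mean. The background was the 95th percentile of 1108 olfactory receptor probe sets, log2 4.28; 13056 of 22180 genes lay above it. Arrays have no sequencing depth, and precision is limited by having 2 per group.

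Groups were compared with limma 3.58.1 (lmFit, eBayes, two-sided) in R 4.3.3, with Benjamini-Hochberg adjustment over all genes tested, a threshold of 0.05 and 95% intervals from the moderated error. Steps were tested on simulated data. Promoter windows and start sites were RefSeq's on GRCm38.p6. Figures used matplotlib 3.10.9. The genes of the set, the other lists and the tests were chosen with earlier results of these data known. The rule named genes past the threshold and the 3 highest and 3 lowest per pathway, or all where up to 6 were tested. It also named 8 genes in any case (Brca1, Brca2, Atm, Atr, Chek1, Chek2, Parp1 and Prkdc). The target and the 2 genes of largest absolute change in other lists completed it. Rad52, Rad51c, Rad51b, Neil1, Ogg1 and Nbn were named beyond that rule. Head-to-head neighbours, Gtf2h1 and partner pairs were chosen after values were seen.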

Additional observations from a re-analysis of the deposited data

How the results depend on the processing

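The count of repair genes called higher by limma was 2. It stayed 2 with a filter at the median over probe sets (47 tested, Fancc left out). It also stayed 2 with a common median and with the mean of a gene's probe sets. The shares of all genes called higher in those fits were 1.97%, 1.64% and 1.44%, in that order. Without the filter on dim probe sets the count was 0 (11 higher and 1 lower by unadjusted p under 0.05). In that fit 0.0631% of all genes were called higher and 0.131% lower. Over all 21867 probe sets past the filter it was 0 (9 and 0), and no named gene was called either way. It was 1 after quantile normalization once more (1.57% of all genes). With an intensity trend it was 7 (5.59% of all genes), and 8 with that trend and robust estimation (5.78%). With 1 array left out neither call was kept, and nearly all calls over all genes were lost as well. Such a fit assumes the lone array of a group to vary like the other group. No repair gene was called lower under any of the 13 alternatives. The replicate numbers were shared between the groups, but the labels do not pair the arrays, and deviations of same-numbered arrays correlated at -0.066. With the replicate block the count was 0 (12 higher and 1 lower by unadjusted p under 0.05). Over all genes, 0.115% were called higher and 0.276% lower in that fit. Shares of all genes by unadjusted p are not given beside the unadjusted counts here, which are a description.

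Of other repair genes called higher the count of 0 became 2 with the filter at the median, 1 after quantile normalization, 7 with the trend and 7 with the trend and robust estimation, and 1 was called lower with the trend, with or without robust estimation. The median change of the set ran from 0.071 to 0.18 over the alternatives. The sign of the change was kept under all 13 alternatives in 32 of 48 genes and turned under at least 1 in 16, none of which passed under any of them.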

Other observations

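Several proteins of the set work with a partner, and the shift between the transcripts of such partners was read on each array. Ercc4, the partner of Ercc1 here, belongs to the other repair genes and not to the set. The gap between 2 log2 signals was taken relative to its mean in shControl, so it shows unequal change and not unequal level. Between Brca2 and Palb2 the gap was 0.63 and 0.65 on the shYTHDF3 arrays, with the control arrays 0.057 on either side of 0. Between the Ku subunit genes Xrcc5 and Xrcc6 the gap was 0.35 and 0.38 on the shYTHDF3 arrays, with the control arrays 0.016 on either side of 0. Between the clamp genes Fanci and Fancd2 the gap was 0.34 and 0.54 on the shYTHDF3 arrays, with the control arrays 0.021 on either side of 0. Between the nuclease subunit genes Ercc1 and Ercc4 the gap was 0.68 and 0.45 on the shYTHDF3 arrays, with the control arrays 0.088 on either side of 0. Between Xrcc1 and Lig3 the gap was 0.44 and 0.42 on the shYTHDF3 arrays, with the control arrays 0.16 on either side of 0. Between Brca1 and Bard1 the gap was 0.31 and 0.51 on the shYTHDF3 arrays, with the control arrays 0.20 on either side of 0. Xrcc3 with Rad51c and Rad50 with Mre11a also had separate groups, at mean gap changes of 0.40 and 0.21. Between Xrcc4 and Lig4 the groups overlapped, so that 8 of the 9 pairs read had separate groups. For single genes, the groups did not overlap in 28.3% (shYTHDF3 above) and 25.7% (shYTHDF3 below) of all genes tested. The share among gene pairs in general was not computed, so 8 of 9 cannot be set against it. The pairs were picked after the values were seen and each was written with the gene of higher change first, which fixes the sign of the gap; the gaps are a description and were not tested.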
